A study of Rattus norvegicus with 180 samples.

Results

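miR-204, miR-211 and miR-184 are 3 of the 717 miRNAs that were measured on the 1-color arrays of a rat organ atlas. They were taken by their IDs on the array (rno-miR-204, rno-miR-211 and rno-miR-184), without the starred strands, and each of the 3 IDs occurs once. The atlas holds 180 arrays from male Sprague-Dawley rats, an albino stock, that were 10 weeks old and anesthetized with ether. Rats 4, 5 and 6 had their blood washed out with saline and gave 55 organs each, 1 array per organ. Rats 1, 2 and 3 were left unperfused and gave 5 of these organs each (15 arrays): kidney, liver, lung, heart_atrium and heart_interventricular septum. The labels give no other treatment and no genetic change, so that every group is 1 organ under 1 sampling condition. Each group holds 3 different rats by the sample titles, while for 8 arrays another label gives a different rat number. The kidney was taken whole, with cortex, medulla and papilla, the eyeball was not divided further in the labels, and the cerebrum regions were cut out by eye, so that a level is an average over all cells of the piece. In such pieces fewer cells of a type and less miRNA per cell cannot be told apart. All values are scaled signals, which set 1 miRNA in one organ against the same miRNA in another but never 2 miRNAs or 2 probes against each other.

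A miRNA recognizes its target mRNAs mainly through the seed, bases 2 to 8 of the mature strand, and lowers their translation or stability. miR-204 and miR-211 are a pair with 1 shared seed, which lie in introns of the ion channel genes Trpm3 and Trpm1 and are known from the retinal pigment epithelium, where they favor the differentiated state. miR-204 is also known from lens, ciliary body and the choroid plexus of the brain, and miR-211 from pigment cells. miR-184 has no relation to the pair in sequence and is known from the epithelium of cornea and lens.

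The mature sequences (RefSeq, build GRCr8, 5′ to 3′, seed in capitals) are shown because miR-204 and miR-211 differ by a single base.
rno-miR-204 (chr1:229743493-229743514, + strand): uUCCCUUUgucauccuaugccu
rno-miR-211 (chr1:127189353-127189374, + strand): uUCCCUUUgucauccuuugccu
rno-miR-184 (chr8:99222991-99223012, - strand): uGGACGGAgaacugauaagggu
All 3 names matched an entry of the sequence table. Of the 22 bases, 21 are the same in miR-204 and miR-211 (95.5%). The single difference is A17U, counted from 1 at the 5′ end with the base of miR-204 first, and lies outside the seed. Among the 724 mature entries of the table, the seed of miR-204 and miR-211 occurs in these 2 entries and that of miR-184 in 1. No further seed relative of any of them is listed there.
The hairpins, with the mature strand in capitals, show how far the precursors of the pair differ outside it.
Mir204 hairpin (110 bases): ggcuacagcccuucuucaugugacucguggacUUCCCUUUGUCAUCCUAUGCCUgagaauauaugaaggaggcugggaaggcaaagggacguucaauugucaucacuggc
Mir211 hairpin (106 bases): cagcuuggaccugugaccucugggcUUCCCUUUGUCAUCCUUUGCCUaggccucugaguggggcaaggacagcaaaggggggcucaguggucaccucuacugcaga
Mir184 hairpin (77 bases): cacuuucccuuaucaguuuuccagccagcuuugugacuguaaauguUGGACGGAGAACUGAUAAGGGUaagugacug
In the RefSeq gene table, Mir204 lies within the span of Trpm3 and Mir211 within that of Trpm1, and no other gene spans Mir184.

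All 3 miRNAs had their highest signal in eyeball, but they differed in how far they reached beyond it. miR-204 was detected on 154 of 180 arrays, in most organs, whereas miR-211 was detected on 9 arrays and miR-184 on 7. Detection here means that the scanner software marked more than 50% of the spots of a miRNA as well above background. Over the 55 organs of the perfused rats, miR-204 was detected on all 3 arrays in 43 organs and on 1 or 2 arrays in 8. Over all its spots, no array detected it in 4 organs (pancreas, jejunum, liver and bone marrow). Its first probe alone was detected on 2 of the 3 jejunum arrays. miR-211 and miR-184 were each detected on all 3 arrays in 1 organ, the eyeball.

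**Figure D1:**
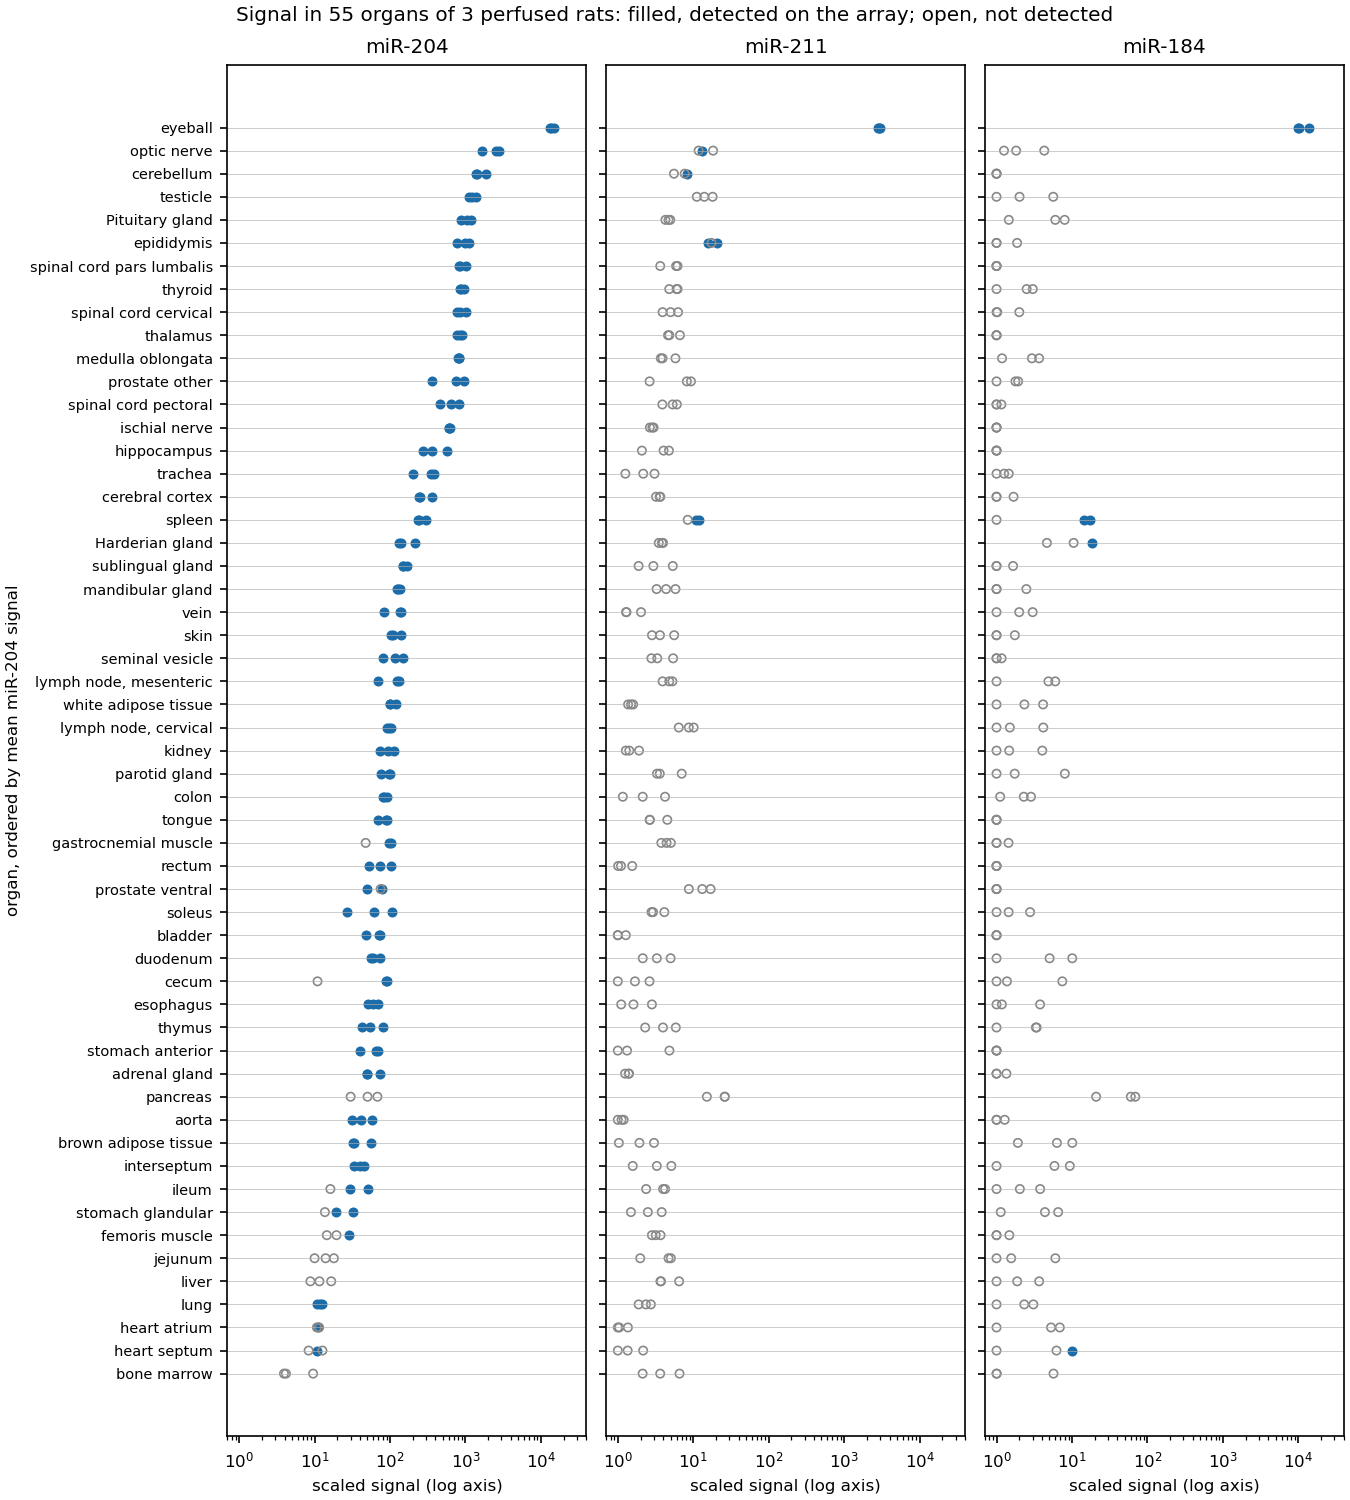
Scaled signal (log axis) of miR-204, miR-211 and miR-184 in each of 55 organs, 1 point per perfused rat, with organs in the order of mean miR-204 and signals under 1 drawn at 1. Filled points are arrays on which the miRNA was detected: they run through most organs for miR-204, and for miR-211 and miR-184 lie far to the right in eyeball with 6 and 4 faint exceptions elsewhere.

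In eyeball, the miR-204 signal was 13722, 13027 and 15129 in rats 4, 5 and 6 (13959 ± 1071, SD, n = 3). The next organ, optic nerve, gave 1667, 2536 and 2797 in the same rats (2333 ± 592). The 2 organs did not overlap, and the ratio of their means was 5.98. This ratio depends on how arrays are scaled: as a geometric mean it lay between 3.08 with the table of the authors and 6.71 with quantile normalization, and eyeball ranked first and optic nerve second in all 10 settings of scaling, floor and spot summary. Over all organs, miR-204 was higher in eyeball than in the mean of the other 54 by 6.89 on the log2 scale (SE 0.26, 119-fold, limma with Benjamini-Hochberg adjustment, adjusted p = 3.81e-49), in a comparison in which 32.8% of the 345 miRNAs tested were called higher. Those calls were 113 higher and 113 lower, and turned to 53 and 177 with the 75th percentile over all miRNAs, 57 and 167 with quantile normalization, and 55 and 166 with the authors' table. Since miR-204 was chosen with earlier results of these data known, its p is a description and no independent evidence. Within rats 4, 5 and 6 the difference of miR-204 was 6.85, 6.85 and 6.98, and within the 3 scan days, each with 1 eyeball array, it was 7.19, 6.90 and 6.98. Scaling by the 75th percentile over all miRNAs gave 6.09, and normexp background correction gave the lowest value, 5.70. The scaling also moved the median of the 144 miRNAs detected on at least 50% of the perfused arrays (the widely detected miRNAs), from 0.37 to -0.42, and relative to that median miR-204 was higher by 6.52 and 6.50. Over the 4 organs with no detection over all spots, eyeball was at least 72.8-fold (pancreas) to 701-fold (jejunum) higher.

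miR-211 reached 2958, 2791 and 2930 in the 3 eyeballs (2893 ± 89.5), with a coefficient of variation of 3.09%. No other organ came near: the highest single signal among the other 162 perfused arrays was 26.2, in pancreas, where it was not detected. In 50 organs no array detected miR-211 over all spots. The third of its 3 probes alone was detected on arrays of some of these organs, among them 1 perfused lung array. Over the 50 organs eyeball was at least 15.1-fold (pancreas) to 750-fold (lung) higher, with a median bound of 273-fold. A bound sets the eyeball against the lowest detected signal of each array, or against the miRNA's own signal where that was higher. On the log2 scale with the floor of 10.8, eyeball differed from the mean of the other organs by 8.01. This is given with no test, because miR-211 entered the fit only through eyeball and most other arrays lay at the floor, which sets the size of the difference (5.17 to 9.40 over the alternatives).

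miR-184 was 10067, 9822 and 13672 in the 3 eyeballs (11187 ± 2156). Outside eyeball it was detected on 4 of 162 perfused arrays, which were 2 of spleen (17.2 and 14.5), 1 of Harderian gland (18.5) and 1 of heart_interventricular septum (9.96). In the 51 organs with no detection, eyeball was at least 57.7-fold (pancreas) to 2867-fold higher, with a median bound of 1032-fold. The study itself listed miR-184 for eyeball on these arrays, so that its difference from the mean of the other organs, 9.95 on the log2 scale, is given with no test. It too is set by the floor and ranged from 7.04 to 11.65 over the alternatives. Rat 6 was highest for miR-204 and miR-184 but lay between the others for miR-211. Pancreas followed eyeball in the order of miR-184 with scaled signals of 60.3, 69.1 and 20.9 and 0 of 3 arrays detected. There the signals before scaling were 3.43, 2.95 and 0.67, and the arrays were multiplied by factors of 17.5 to 31.1, against a median factor of 1.13 on the other arrays.

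Beside the 3 members, the neuronal miR-124 (8.56) and the sensory miR-96 (6.96) were among the miRNAs with the greatest difference between eyeball and the mean of the other organs, against a median of -0.09 over all tested. The places of miR-184 and miR-211 in that order rest on the floor and are not given. The differences of miR-124 and miR-96 also rest in part on the floor. miR-124 lay under it in organs such as kidney and Harderian gland, and miR-96 in organs such as optic nerve and cerebral cortex (0 arrays detected in each). An eye list of 9 miRNAs, chosen with results of these data known, was called higher in 9 of 9, beside 32.8% of all tested, with a median of 4.92. Since it was chosen that way, its count is a description and no evidence. It held the sensory cluster miR-183, miR-96 and miR-182, which serves photoreceptors, the neuronal miR-124, miR-9 and miR-9*, and the epithelial miR-203, miR-205 and miR-31. Of a second list of neuronal miRNAs, miR-128 (-0.01) was not called, and miR-138 (-0.49) was called lower with 0 of 3 eyeball arrays detecting it, its signal there lying near the floor. The 3 sensory miRNAs, listed for photoreceptors and other sensory cells, summed to 12200 to 13330 in eyeball and to at most 4.90 in optic nerve. They were not limited to eyeball. In kidney they summed to 228 to 277, and in Harderian gland miR-183, miR-96 and miR-182 had means of 384, 798 and 67.5. Striated muscle miRNAs (miR-1, miR-133a, miR-133b and miR-206) summed to 993, 2149 and 4294 in the eyeballs of rats 4, 5 and 6. In the optic nerve of rat 4, which had the lowest miR-204 of the 3, they summed to 4979, against 23.3 and 20.1 in rats 5 and 6. The myelin miRNAs miR-219-5p, miR-219-2-3p and miR-338 summed to 3794, 5697 and 5344 in the optic nerves of rats 4, 5 and 6, and thus were lowest in the same array. The part of muscle in the levels of miR-204 was not tested.

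**Figure D2:**
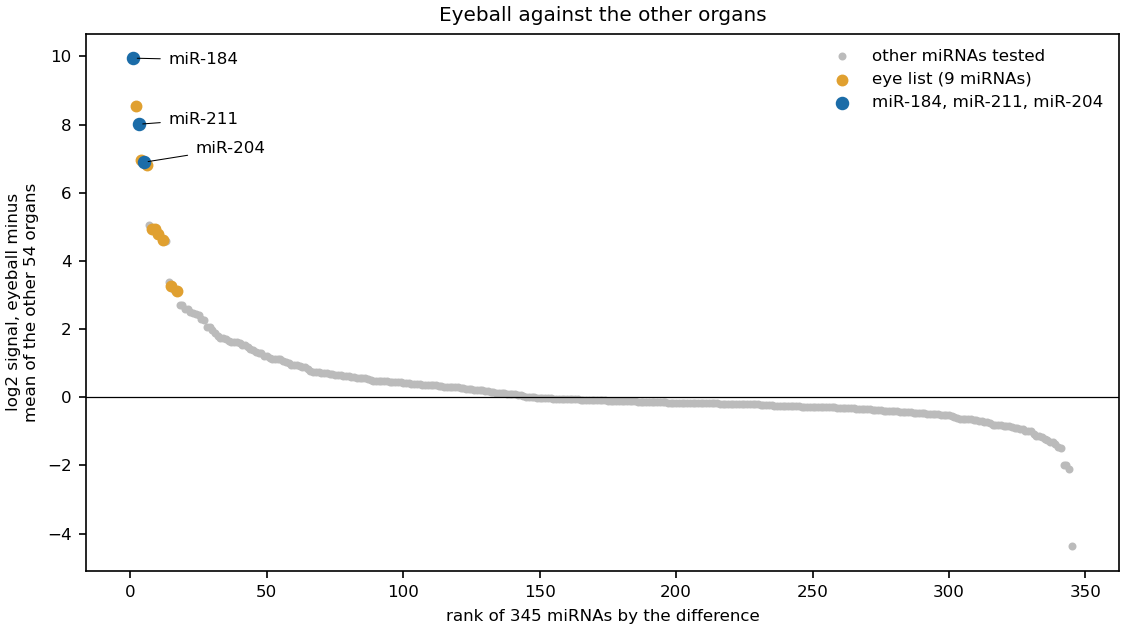
Log2 signal in eyeball minus the mean of the other 54 organs for 345 miRNAs, ranked, in 3 perfused rats. miR-184, miR-211 and miR-204 (blue) lie at the left end beside members of the eye list (orange), the heights of miR-184 and miR-211 being set by the floor.

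Each miRNA was measured by several probes, whose own signals in eyeball are given to show the spread over rats. The 2 probes of miR-204 gave 20259 ± 1158 and 7660 ± 1303, and their log2 signals had a Pearson correlation of 0.99 over the 140 arrays on which both were detected and above the floor, which share scaling and RNA. For miR-184 the 2 probes gave 11162 ± 2170 and 11212 ± 2142. For miR-211 the 3 probes gave 291 ± 58.9, 3490 ± 175 and 4897 ± 37.5. All 7 probes of the 3 miRNAs were detected on all 3 eyeball arrays.

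The probes of miR-211 also bear on how well the array kept the pair apart. In optic nerve, where miR-204 was 2333, the 3 probes of miR-211 gave 1.12, 14.0 and 28.0, and in cerebellum, with miR-204 at 1565, they gave 0.50, 5.99 and 15.1. Only the third was detected on all 3 arrays of both organs. Outside these organs the third probe was detected on all 3 arrays of epididymis (30.9, with miR-204 at 958) and spleen (18.0, with miR-204 at 260). In testicle, where miR-204 was 1246, it gave 24.0 with 0 of 3 arrays detected. With less miR-204, it gave 24.9 in pancreas (miR-204 at 49.5), 19.0 in ventral prostate (67.6) and 13.6 in cervical lymph node (97.5). There it was detected on 0, 1 and 1 of 3 arrays. The pancreas arrays had been multiplied by 17.5 to 31.1 in scaling, against a median factor of 1.13 on the other arrays. In most other organs the third probe lay under the floor, where the order of single organs is unsure. Over 53 organs, without eyeball and pancreas, its mean signal had a Spearman correlation of 0.67 with that of miR-204. The first and second probes of miR-211 were at -0.08 and 0.47, and miR-184 was at -0.15. Whether a share of the signal of miR-211 comes from miR-204 was not tested, and the bases of the probes were not used here.

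**Figure D3:**
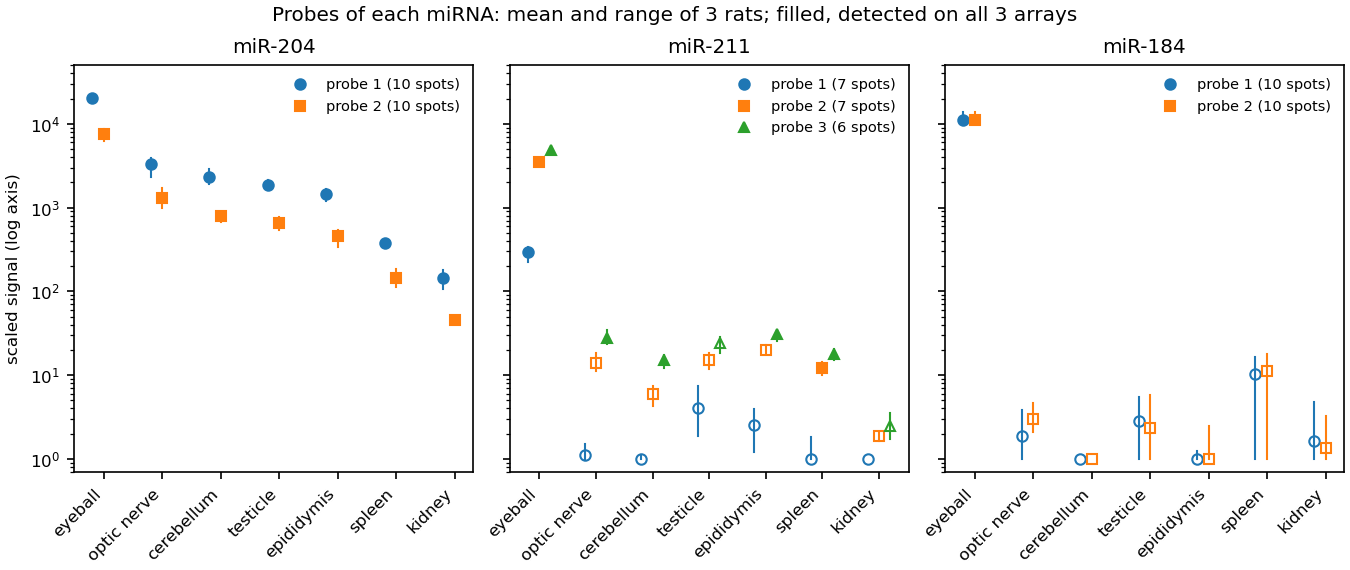
Scaled signal (log axis) of each probe of miR-204, miR-211 and miR-184 in 7 organs, as the mean with the range of 3 perfused rats and with values under 1 drawn at 1. Filled symbols mark probes detected on all 3 arrays of an organ; for miR-211 the first probe is filled in eyeball and open in the 6 other organs.

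Of the starred strands of these hairpins, miR-204* was likewise highest in eyeball and miR-211* was not. miR-204* was detected on 1 array, an eyeball, and measured 37.9, 38.3 and 38.8 there, against at most 10.1 on the other perfused arrays. miR-211* was detected on 47 arrays and was highest in pancreas (1445 ± 689) and ileum (310 ± 220) after scaling. Before scaling pancreas gave 40.0 to 88.2 and ileum 78.1 to 258, so that the order of these organs rests on the scaling. Eyeball gave 21.5, 23.6 and 25.3.

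Outside the eye, miR-204 was graded over organs, with nervous tissue near the top. With the scaling used here, the 5 highest organs were eyeball, optic nerve, cerebellum (1565 ± 281), testicle (1246 ± 136) and pituitary gland (1032 ± 146), and the median over the 55 organ means was 94.3. Testicle moved between ranks 4 and 9 over the 10 settings. The 5 brain regions, 3 spinal cord levels, optic nerve, ischial nerve and pituitary gland, 11 organs in all, held ranks between 2 and 17, with means from 284 in cerebral cortex to 2333. Over the 10 settings thalamus moved between ranks 8 and 16, hippocampus between 15 and 19 and cerebral cortex between 17 and 22. Among other organs, epididymis (958 ± 170), thyroid (888 ± 62.5) and the non-ventral prostate (688 ± 304) were high. At the other end lay jejunum (14.0 ± 4.01), liver (12.3 ± 3.96), lung (11.8 ± 0.86), heart_atrium (11.1 ± 0.39), heart_interventricular septum (10.6 ± 2.19) and bone marrow (5.89 ± 3.19), at or near the floor.

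Most neighbours in this order overlapped. Of the 54 pairs of neighbours in it, 4 did not overlap over the 3 rats: eyeball above optic nerve, ischial nerve above hippocampus, spleen above Harderian gland, and sublingual gland above mandibular gland. The other 50 pairs overlapped in their ranges over the 3 rats, and no test of neighbours was made. Optic nerve, which overlapped with cerebellum, was above it in each of the 3 rats. Where all 3 arrays detected miR-204, the coefficient of variation had a median of 17.3%, from 2.86% in medulla oblongata to 61.9% in musculus soleus.

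The brain regions differed among themselves in miR-204. The labels give rat 5 in 1 field and rat 6 in another for 8 arrays, among them the rat 5 arrays of medulla oblongata, pituitary gland and the 3 spinal cord levels, so that values within rats that use these arrays rest on the number in the title. Without these 8 arrays the medulla oblongata difference of miR-204 was 0.41 and the difference between brain and spinal cord -0.26, and no call on miR-204 changed. In cerebellum rats 4, 5 and 6 gave 1416, 1889 and 1389. The thalamus gave 837, 905 and 781 (841 ± 62.2). The medulla oblongata gave 832, 815 and 786 (811 ± 23.2). These 2 regions overlapped, and both lay under every cerebellum. The hippocampus gave 569, 278 and 357 (401 ± 151). The cerebral cortex gave 246, 241 and 363 (284 ± 69.1) and overlapped with the hippocampus, and both lay under every thalamus and medulla.

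The moderated F test over the 5 regions gave F = 15.0 (limma, adjusted p = 2.80e-09), in a comparison in which 53.6% of the 345 miRNAs passed. miR-204 in cerebellum was higher than in the mean of the other 4 regions by 1.58 on the log2 scale (SE 0.28, 2.98-fold, adjusted p = 7.38e-07), and 11.9% of miRNAs were called higher there. Over all miRNAs the calls were 41 higher and 126 lower, and turned to 95 and 44 with the 75th percentile over all miRNAs, 66 and 79 with quantile normalization, and 79 and 61 with the authors' table. The difference held within rats 4, 5 and 6 (1.34, 2.00 and 1.39), but with the 75th percentile over all miRNAs it was 2.66, and it was 2.30 with the authors' table. Relative to the median of the 144 widely detected miRNAs it was 1.82, 2.23 and 2.23 in these 3 settings. In cerebral cortex miR-204 fell by 1.52 (SE 0.28, 2.86-fold, adjusted p = 8.56e-06), where 11% of miRNAs were called lower. The values within rats were -1.81, -1.71 and -1.03. The neuronal miRNAs miR-124, miR-9, miR-128 and miR-138 summed to 17956 to 20329 in cerebral cortex, 15631 to 20076 in cerebellum and 6190 to 8769 in medulla oblongata. The myelin miRNAs summed to 1263 to 2049, 1005 to 1748 and 4690 to 6082 in the same regions. Such a sum is led by its brightest members, and they did not all go the same way. miR-124 was 6641 in cerebral cortex and 11000 in cerebellum, while miR-9 was 3849 and 2859. The part of neurons and myelin in the differences of miR-204 was not tested.

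In hippocampus it was lower by 0.94 (difference -0.94, SE 0.28, adjusted p = 0.0103, with 6.38% called lower). The 32 higher and 22 lower calls there turned to 17 and 37 with the 75th percentile over all miRNAs and to 22 and 29 with the authors' table. The values within rats 4, 5 and 6 were -0.30, -1.45 and -1.06. The call was lost without rat 5 (-0.68, adjusted p = 0.257), without rat 6 (-0.88, adjusted p = 0.261) and with normexp (-0.88, adjusted p = 0.127). The myelin miRNAs summed to 5230, 1623 and 4100 in the hippocampus of rats 4, 5 and 6, in the order of miR-204 there. In medulla oblongata they summed to 4690, 6003 and 6082, against the order of miR-204, and their part was not tested. Thalamus (0.47, 95% interval -0.09 to 1.04, adjusted p = 0.231) and medulla oblongata (0.41, -0.15 to 0.97, adjusted p = 0.38) did not pass. Within rats 4, 5 and 6 thalamus was at 0.39, 0.68 and 0.35 and medulla oblongata at 0.38, 0.49 and 0.36. Over all 345 miRNAs tested, the calls in thalamus were 111 higher and 16 lower. They turned to 41 and 73 with the 75th percentile over all miRNAs and to 46 and 65 with the authors' table. With the brain arrays alone miR-204 in thalamus passed (limma, adjusted p = 0.0409), where 127 of 209 miRNAs were called. The thalamus difference of miR-204 turned to -0.23 with the 75th percentile over all miRNAs and to -0.14 with the authors' table. Relative to the median of the widely detected miRNAs it was 0.30, 0.07 and 0.09 with the scaling used here, that percentile and the authors' table.

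miR-211 and miR-184 were not compared among brain regions. Over all spots, miR-211 was detected on 1 of 15 brain arrays, a cerebellum, and miR-184 on 0, with mean signals over probes of up to 8.33 and 3.67, under the floor. The third probe of miR-211 alone was detected on 3 cerebellum, 2 medulla oblongata and 1 thalamus arrays, at 12.0 to 17.6 in cerebellum.

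**Figure D4:**
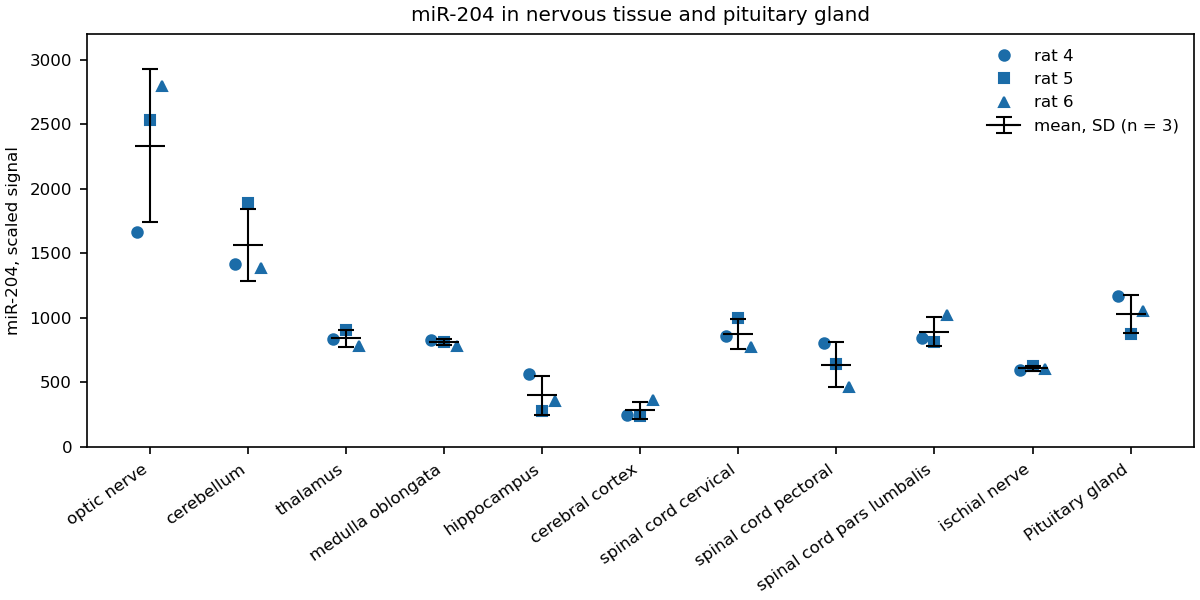
Scaled signal of miR-204 in nervous tissue and pituitary gland of perfused rats 4, 5 and 6 (circle, square and triangle), with the mean and SD of 3 rats. Every cerebellum (1389 to 1889) lies above every thalamus and medulla oblongata (781 to 905), and these above every hippocampus and cerebral cortex (241 to 569).

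Brain and spinal cord were compared to place the regions within the central nervous system. The spinal cord gave 878 ± 117 at the cervical, 638 ± 173 at the pectoral and 894 ± 115 at the lumbar level, and the 3 levels overlapped. The mean of the 5 brain regions differed from that of the 3 cord levels by -0.28 on the log2 scale (95% interval -0.65 to 0.09, limma, adjusted p = 0.252), in a comparison in which 47.8% of miRNAs passed. Within rats 4, 5 and 6 it was -0.32, -0.37 and -0.15. Over all spots, neither miR-211 nor miR-184 was detected on any of the 9 cord arrays, while the third probe of miR-211 alone was detected on 2 cervical, 2 lumbar and 1 pectoral arrays, with means of 10.1, 10.3 and 9.89.

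In kidney miR-204 was present at a middle level and the others were not detected. The 3 perfused kidneys gave 114, 93.7 and 74.7 (94.3 ± 19.9), and kidney held rank 28 of 55, next to cervical lymph node (97.5) and parotid gland (90.2), with which it overlapped. Over the 10 settings it held ranks 23 to 38. The eyeball mean was 148 times as high, and as a geometric mean this ratio lay between 58.0 and 161 over the 10 settings. The log2 difference of kidney from the mean over the other 54 was -0.47 (SE 0.26, 95% interval -0.98 to 0.04, limma, adjusted p = 0.0927), where 51.3% of miRNAs were called lower and 16.8% higher. These 177 lower and 58 higher calls turned to 131 and 102 with the 75th percentile over all miRNAs, 138 and 87 with quantile normalization, and 135 and 79 with the authors' table. Within rats 4, 5 and 6 it was -0.18, -0.40 and -0.82, and within the 3 scan days 0.10, -0.35 and -0.82. Its sign turned to 0.12 with the 75th percentile over all miRNAs, and it passed the threshold with normexp, with a floor 4 times as high and without rat 4 (lowest -0.90). Over the 144 widely detected miRNAs that scaling moved the median kidney difference from -0.06 to 0.53, and relative to this median miR-204 was at -0.41 in both. miR-211 and miR-184 were detected on 0 of 6 kidney arrays, with signals up to 2.57 and 4.04.

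A kidney list of 15 miRNAs, also chosen with results of these data known, was called higher in kidney in 13 of 15, beside 16.8% of all tested, with a median of 2.60 against -0.25 over all tested. It included the tubular and gut epithelial miR-192 (5.52) and miR-194 (4.40), the HOX cluster's miR-10a-5p (3.43) and miR-196a (3.02). The 2 lower ones were miR-141 (-0.61) and miR-200c (-1.87) of the epithelial miR-200 family. Of the same family, miR-200a (2.60), miR-200b (2.82) and miR-429 (2.69) were called higher. miR-200c was detected on 0 perfused kidney arrays, with a mean of 6.16, under the floor. The array holds a second entry for it, rno-miR-200c_v15.0, which was not on the list and whose kidney level is not given here. In eyeball the 2 entries differed in sign (1.13 for the second and -1.48 for the one listed).

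The study took 5 organs under both sampling conditions to see what blood adds to an organ. In kidney without perfusion miR-204 was 105, 71.7 and 133 (103 ± 30.8), which overlapped with the perfused kidneys. Perfused minus not perfused was -0.11 (95% interval -0.55 to 0.34, limma, adjusted p = 1). It ranged from -0.68 (normexp) to 0.10 (without rat 3) over the alternatives, with -0.35 without rat 2, -0.26 without rat 4 and 0.05 without rat 6, and none passed. None of the 191 miRNAs tested (0%) passed in kidney, where 4 had an unadjusted p under 0.05, and rat as a random replicate block gave miR-204 an adjusted p of 1 too.

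In the other 4 organs miR-204 lay near the floor, and no difference between conditions passed. Lung gave 10.9, 12.6 and 11.9 with and 16.6, 15.7 and 29.3 without perfusion. Heart_atrium gave 11.5, 10.73 and 11.0 with and 19.0, 17.0 and 16.1 without. Heart_interventricular septum gave 10.8, 12.7 and 8.35 with and 15.0, 16.2 and 12.9 without. In these 3 organs the conditions did not overlap, with the perfused arrays lower, and in both heart parts 1 of the 3 lay under the floor. All perfused arrays lay under all others for 6.28%, 5.24% and 3.14% of the miRNAs tested in these organs. Liver overlapped (8.80, 16.6 and 11.6 against 15.5, 15.9 and 18.5) and had no array that detected miR-204.

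The differences were -0.75 in lung (limma, adjusted p = 0.109), -0.64 in heart_atrium (0.68), -0.36 in heart_interventricular septum (1) and -0.37 in liver (0.843), and in each of these organs 0 of 191 miRNAs passed, with 12, 4, 3 and 11 at an unadjusted p under 0.05. With the 6 arrays of heart_atrium alone the limma adjusted p was 0.0482, in a fit in which 2 of 126 miRNAs were called. With a floor 4 times as high the differences in liver, lung and both heart parts were 0. Liver turned to 0.08 with normexp. The effect was not shown to differ between the 5 organs (moderated F = 1.38, unadjusted p = 0.275, adjusted p = 1). The red cell miRNAs miR-451 and miR-144 summed to 9.38 to 16.6 in perfused and 136 to 235 in not perfused kidney, to 31.1 to 76.1 in perfused and 232 to 817 in not perfused heart_atrium, and to 15.7 to 88.5 and 229 to 754 in heart_interventricular septum. In lung they overlapped (17.7 to 1123 and 416 to 576). The leukocyte miRNAs miR-142-3p and miR-223 overlapped between conditions in all 5 organs. The part of blood in the values of miR-204 was not tested. All arrays of rats 1 to 3 were scanned on the first day, together with 38 of the 55 arrays of rat 4. Within that day the single perfused array of each organ differed from the 3 others by 0.19 in kidney, -0.86 in lung, -0.59 in heart_atrium, -0.43 in heart_interventricular septum and -0.61 in liver.

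**Figure D5:**
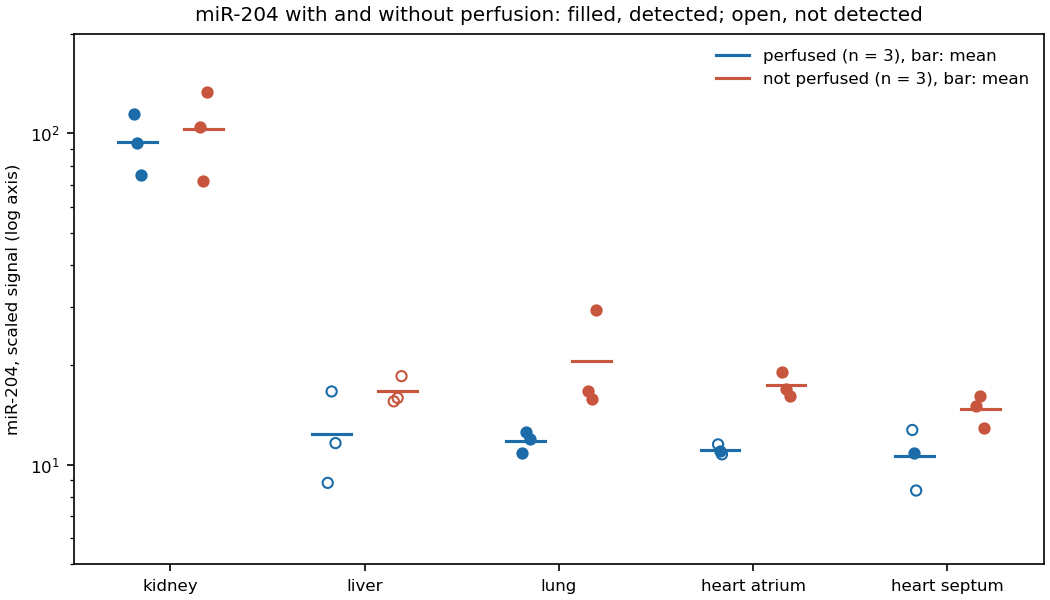
Scaled signal of miR-204 (log axis) in 5 organs with (blue) and without (red) perfusion, 3 rats each, bars at the mean and open points where it was not detected. Kidney overlaps between 71.7 and 133; in lung, heart_atrium and heart_interventricular septum every perfused array lies under every other.

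The miRNAs most like each member over the 55 organ means were found by Pearson correlation of log2 signals, given as a description. For miR-204 these were miR-331 (0.69), miR-129-2* (0.68) and miR-9* (0.68), against a median of 0.06 over all miRNAs tested. They stayed at 0.66, 0.66 and 0.67 without eyeball. miR-211 and miR-184 had each other as the nearest (0.99), followed for both by miR-182 (0.62 and 0.60) and miR-183 (0.48 and 0.46) of the sensory cluster. The correlations with miR-182 and miR-183 rested on eyeball: without it miR-182 was at 0.05 and -0.06 and miR-183 at -0.04 and -0.12. miR-211 with miR-184 was at 0.71 without eyeball and at -0.01 without eyeball and pancreas, with both at or near the floor in the organs left. miR-204 correlated with miR-211 at 0.43, at 0.18 without eyeball and at 0.35 without both organs. With miR-184 the same values were 0.39, -0.07 and 0.08.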

How the data were processed

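The samples were 180 1-color Agilent arrays, 1 per organ and rat, and were grouped by their labels. Per the submitters' processing notes, the authors used Agilent Feature Extraction 10.7.3, and they deposited per array the background-corrected signal intensity of each spot, and a table scaled per array by a central tendency method that uses a 75th percentile. Here intensities of non-outlier spots were averaged per probe, then per miRNA. For scaling, the 75th percentile of the 37 miRNAs that every array detected was brought to 2118 on each array, after which signals below a floor of 10.8 were raised to it and log2 was taken. No spot was saturated (0), outliers made up 1.63% to 6.42% of spots, and 86 to 244 miRNAs were detected per array. The number of arrays limits the precision.

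limma 3.58.1 (R 4.3.3) was fitted over the perfused arrays with 1 term per organ, or over 30 arrays of 5 organs and 2 conditions, for miRNAs that some group detected on each of its 3 arrays, with Benjamini-Hochberg adjustment over all tested. The fits were also tried on simulated data, of which no result is given here. Members, lists and markers were chosen with earlier results of these data known, so that the p-values of miR-204 are a description. The text names the members, their starred strands, list members, and for each member the 3 most correlated miRNAs. Outside that rule the brain and blood markers come from a marker list of the same kind, and examples in each list were chosen after their values were seen.

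The same rats gave all perfused organs: residuals of arrays of one rat correlated at 0.072 on average (0.051, 0.096 and 0.069 in rats 4, 5 and 6) and those of different rats at -0.035, over 144 miRNAs. Rat and scan day nearly coincide (rat 6 lay wholly on the third day). For 8 arrays the labels give 2 rat numbers, and an alternative left them out. Other alternatives changed scaling, floor, background, spot and probe summary, filter, blocks and arrays. The table of the authors served as an alternative only. Sequences came from RefSeq (GRCr8). The files name an older build, so that no coordinate was taken from them.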

Additional observations from a re-analysis of the deposited data

How the results depend on the processing

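The miR-204 difference in eyeball, the F test over brain regions, the brain against spinal cord difference and the perfusion difference in kidney stayed on their side of the threshold in all alternatives that gave a value. With rat as a replicate block miR-204 stayed at 6.89 in eyeball, -0.47 in kidney and -0.28 for brain against spinal cord, and no call changed. A fixed block could not be fitted for perfusion, so a random one was chosen after seeing the data (-0.11 in kidney). The kidney difference of miR-204 passed with normexp (-0.90) and with a floor 4 times as high (-0.76), and leaving out 1 rat gave -0.61 to -0.29. Normexp was run on spot medians. The cause of these changes was not tested.

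Counts of miRNAs past the threshold fell from 226 to 54 with normexp and to 93 with a filter on detection on at least 50% of the arrays in eyeball, from 235 to 78 and 91 in kidney, from 185 to 81 and 104 over brain regions, and to 73 and 87 for brain against spinal cord. For these comparisons that filter tested 144 miRNAs in place of 345 and dropped miR-211 and miR-184. Its counts and the main ones are therefore out of unlike totals, and a lower count is no lower share. For perfusion in kidney the count rose from 0 to 4 with quantile normalization, and to 1 with the 75th percentile over all miRNAs, with either change of filter and with only the kidney arrays. Leaving out 1 rat gave 0 to 3 there, with 3 without rat 4 and 1 without rat 3. The arrays compared alone are all perfused arrays in the eyeball and kidney comparisons, so no further fit was made. The 8 arrays with 2 rat numbers include none of the perfusion arrays.

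Under the floor the order of single organs is unsure, which limits miR-211 and miR-184 outside eyeball. It also limits miR-204 in bone marrow and in perfused liver and heart parts, which had arrays under the floor. In lung the signals of miR-204 lay above the floor, though near it with perfusion.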
